A study of Mus musculus with 16 samples.

Results

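The 10 lipid-associated macrophage genes described here are Trem2, Cd9, Gpnmb, Spp1, Itgax, Itgad, Dcstamp, Atp6v0d2, Lgals3 and Mmp12. They were chosen by name, as genes known to mark macrophages that take up lipid in obese fat, with earlier results of these data known. All 10 were among the 23179 genes of the expression table, and all 10 were among the 21218 genes that had enough reads to be tested. RNA-Seq libraries came from the tumor-free mammary fat pad of wild-type C57BL/6N female mice, 4 in each of 4 groups. CON-LFD mice ate a low-fat diet throughout. The other groups were first made obese on a diet with 60% of its energy from fat (diet-induced obesity, DIO). DIO-HFD mice stayed on that diet, DIO-LFD mice were switched to the low-fat diet, and DIO-VSG mice had vertical sleeve gastrectomy, the surgical removal of part of the stomach, followed by the low-fat diet. Mice entered the study at 8 weeks of age, and every mouse that did not have the gastrectomy had a sham operation. At 22 weeks after the diets were assigned, mice of all groups received E0771 cells, a mouse mammary cancer line, in 1 mammary fat pad, so the CON-LFD mice also carried tumors. DIO-VSG mice differed from DIO-HFD mice in both surgery and diet, and these cannot be told apart in that comparison.

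Macrophages in expanding fat gather around dying adipocytes, engulf their lipid and take on a program that is known as the lipid-associated macrophage state. Trem2 is a surface receptor for lipids and lipoproteins that signals through the adaptor Tyrobp, and in mice it is needed for this state to form. The other genes encode surface proteins, secreted matrix and sugar-binding proteins, and proteins of the lysosome and of cell fusion, several of which are also used by osteoclasts, the bone-resorbing relatives of macrophages.

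All values are normalized counts, which are reads divided by the size factor of the library. Library totals were 46907377 to 57610899 reads, and 3 reads, taken as the floor, were worth 2.46 to 3.32 normalized counts. All 10 adipocyte markers and all 10 mammary epithelium markers were detected, with summed levels of 257425 to 1003181 and 31732 to 153576 normalized counts per library, so both tissues named in the labels were present. The libraries differed widely in lymphoid and muscle content. The summed level of 10 B cell markers ranged from 387 normalized counts in a CON-LFD library to 109750 in a DIO-HFD library, and that of 9 skeletal muscle markers from 550.1 in a DIO-VSG library to 158749.9 in a DIO-LFD library. No source used here describes removal of the lymph node from the fat pad. In bulk tissue, fewer cells of a type and less RNA per cell cannot be told apart.

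The genes lie on 8 chromosomes of the mouse genome (GRCm38, GENCODE M21), and all are protein coding. Trem2 is at chr17:48346401-48354147, Gpnmb at chr6:49036546-49070929, Spp1 at chr5:104435118-104441050, Lgals3 at chr14:47367751-47386160, Mmp12 at chr9:7344381-7369499 and Dcstamp at chr15:39745930-39760938, all on the forward strand. Cd9 at chr6:125460266-125494791 and Atp6v0d2 at chr4:19876841-19922605 are on the reverse strand. Itgax at chr7:128129547-128150657 and Itgad at chr7:128154376-128223816 are neighbors on the forward strand. These 2 integrin genes share sequence, and 13.55% of the 76-base stretches of the Itgad transcripts occur in another gene, Itgax among them, while 5.92% of those of Itgax occur in Itgad. For Cd9 the share was 12.4%, all in the overlapping predicted gene Gm26728 on the opposite strand, and for Spp1 it was 7.4%. The division of reads in these genes is thus less certain, although Gm26728 was at 18 to 80.3 normalized counts, beside 4369 to 11190.4 for Cd9. It was 0 for the other 6 genes.

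RefSeq promoter windows, 250 bases before to 50 bases after a transcription start on GRCm38.p6, were at hand for 7 of the 10 genes, and not for Itgad, Dcstamp or Atp6v0d2. Searches on both strands used 4 motifs of factors that are known to act in macrophages. CACGTG, the E-box bound by the TFEB family, occurred in 7.15% of all 32851 mouse windows, and TCATGTG, the M-box bound by MITF, in 3.77%. TGACTCA, the AP-1 site, occurred in 5.2% and GAGGAAGT, a PU.1 site, in 3.2%. The windows of Gpnmb, of Itgax and of the second start of Mmp12 held an AP-1 site, and the Mmp12 window also held an M-box. Trem2 held none of the 4 motifs and is shown for contrast. Each window is printed from 5′ to 3′ on the strand of the gene, with the motifs in capitals, and no match overlapped another.
Gpnmb promoter, chr6:49036268-49036567, forward strand: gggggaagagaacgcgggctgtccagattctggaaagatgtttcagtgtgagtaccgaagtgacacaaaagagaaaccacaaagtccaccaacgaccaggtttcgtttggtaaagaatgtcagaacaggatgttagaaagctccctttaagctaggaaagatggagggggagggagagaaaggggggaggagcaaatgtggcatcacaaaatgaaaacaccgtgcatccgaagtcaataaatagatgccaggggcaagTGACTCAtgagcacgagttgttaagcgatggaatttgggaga
Itgax promoter, chr7:128129300-128129599, forward strand: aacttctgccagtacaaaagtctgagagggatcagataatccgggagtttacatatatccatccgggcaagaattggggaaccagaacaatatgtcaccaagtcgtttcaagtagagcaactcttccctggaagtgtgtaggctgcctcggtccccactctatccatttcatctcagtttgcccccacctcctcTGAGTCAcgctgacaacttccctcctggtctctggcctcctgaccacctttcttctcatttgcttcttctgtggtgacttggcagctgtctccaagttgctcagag
Mmp12 promoter of the second start, chr9:7347124-7347423, forward strand: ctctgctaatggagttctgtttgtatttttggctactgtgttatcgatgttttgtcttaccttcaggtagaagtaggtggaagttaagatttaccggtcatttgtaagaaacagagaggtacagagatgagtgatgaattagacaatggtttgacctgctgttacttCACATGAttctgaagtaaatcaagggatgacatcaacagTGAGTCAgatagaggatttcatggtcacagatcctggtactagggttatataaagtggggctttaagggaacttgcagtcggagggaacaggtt
Trem2 promoter, chr17:48346151-48346450, forward strand: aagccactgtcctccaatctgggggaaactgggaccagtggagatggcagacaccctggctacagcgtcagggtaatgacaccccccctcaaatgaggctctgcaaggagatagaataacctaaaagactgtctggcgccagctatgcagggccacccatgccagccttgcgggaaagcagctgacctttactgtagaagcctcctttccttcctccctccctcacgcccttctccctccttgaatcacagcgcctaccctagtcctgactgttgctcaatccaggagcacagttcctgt
Counted from the start site in the printed order, the AP-1 site began at base 8 in Gpnmb and, read from the opposite strand, at −56 in Itgax and −44 in Mmp12, where the M-box began at −83. The Mmp12 window lies inside the annotated gene. The first Mmp12 window and the first Spp1 window each held a PU.1 site, and none of the 4 motifs was found in Cd9 or Lgals3. These are matches of letters, and no binding was measured.

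**Figure D1:**
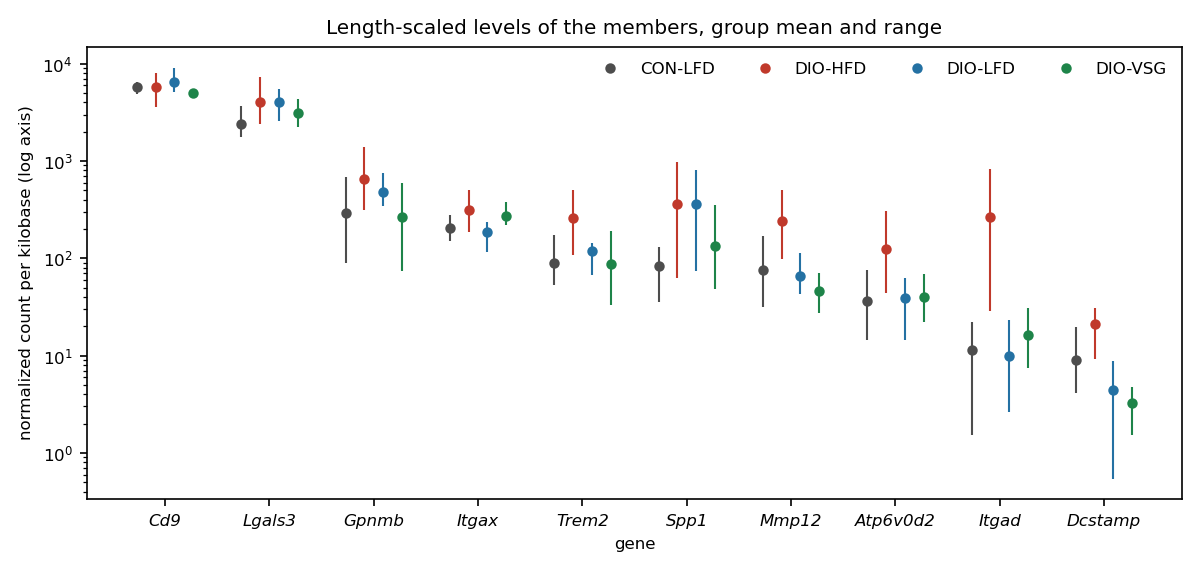
Level of each gene in normalized counts per kilobase of its longest coding transcript (y axis, log scale) for the 4 groups (colors). Points are group means and lines run from the lowest to the highest of 4 libraries. Cd9 and Lgals3 stood above the rest in each group, and Dcstamp was the lowest gene, with 21.2 per kilobase in DIO-HFD.

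Scaled by transcript length, the 10 genes spanned a wide range of levels, as the plot of levels per kilobase shows. In CON-LFD, Cd9 was at 5706 ± 742 normalized counts per kilobase (mean ± SD, n = 4) and Lgals3 at 2389 ± 849. Gpnmb followed at 290.1 ± 274 and Itgax at 206 ± 54.5, then Trem2, Spp1 and Mmp12 at 89.9 ± 56, 83.7 ± 40.2 and 76 ± 63.5. Atp6v0d2 was at 36 ± 28.3, Itgad at 11.5 ± 10.6 and Dcstamp at 8.92 ± 7.18. Cd9, Lgals3 and Gpnmb, and Itgax and Trem2, were further apart than the SD of either gene. Gpnmb and Itgax, and each gene from Trem2 down and the next, were closer than the larger of their SDs, so those neighbors did not differ beyond their spread. In DIO-HFD, Itgad was at 267 ± 384 per kilobase, beside 257 ± 173 for Trem2 and 313 ± 133 for Itgax. The mean of 8 of the 10 genes was highest in DIO-HFD among the 4 groups, where 24.4% of all genes tested had their highest mean, and the exceptions were Cd9 and Lgals3. Spp1 is among the 8 by a near tie, at 547 normalized counts in both DIO-HFD and DIO-LFD, with medians of 304 and 431. The DIO-HFD means include replicate 3, the highest of all 16 libraries in 8 of the genes.

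**Figure D2:**
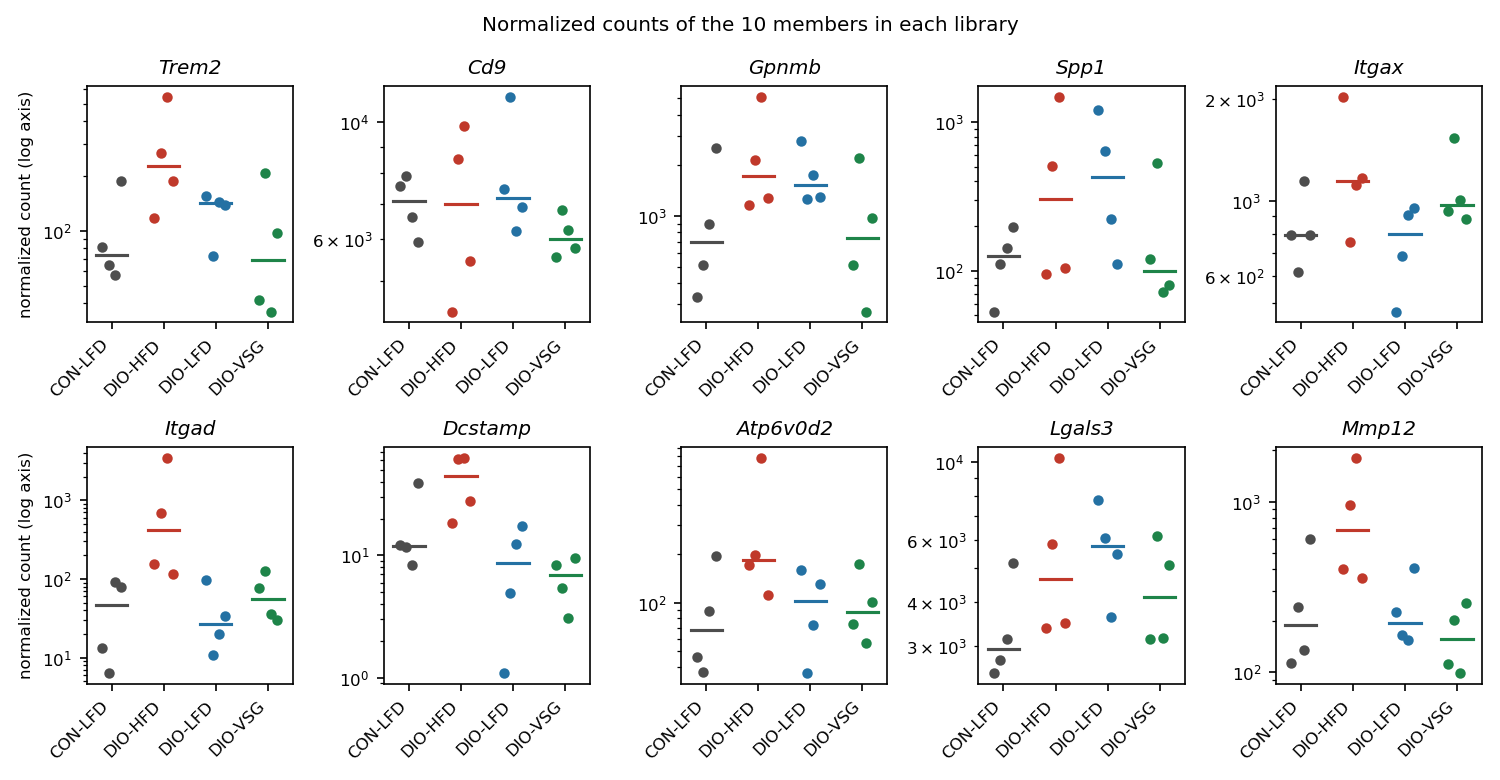
Normalized counts (y axis, log scale) of each gene in each of the 16 libraries, with 1 panel per gene and 1 color per group. Points are libraries, replicates 1 to 4 from left to right, and lines are group medians. The 4 DIO-HFD libraries of Itgad, at 117 to 3424 normalized counts, all lay above the CON-LFD and DIO-LFD libraries.

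Among the receptors and surface proteins, Trem2 and Gpnmb had their highest library in DIO-HFD, and Cd9 did not separate the groups. Trem2 was at 81.7, 64.7, 57.2 and 188 normalized counts in CON-LFD replicates 1 to 4 and at 118, 268, 547 and 188 in DIO-HFD. It was at 156, 72.4, 145 and 139 in DIO-LFD and at 41.5, 207, 35.9 and 97.2 in DIO-VSG. All 4 DIO-HFD libraries lay above 3 of the 4 CON-LFD libraries, and the groups overlapped through CON-LFD replicate 4.

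Gpnmb, a glycoprotein of the lysosome and the cell surface, was at 331, 513, 899 and 2551 normalized counts in the CON-LFD libraries, against 1160.4, 2161, 5105 and 1278 in DIO-HFD. The DIO-LFD values were 2797, 1261, 1743 and 1298, and those of DIO-VSG were 512, 2211, 271 and 978. CON-LFD replicate 4 was again the highest of its group, as was DIO-VSG replicate 2, and each lay above 3 of the 4 DIO-HFD libraries. Cd9, a tetraspanin found on many cell types besides macrophages, was at 7572, 7927, 6602 and 5929 in CON-LFD and at 4369, 8515, 9857 and 5464 in DIO-HFD. Its DIO-LFD values were 7457, 11190.4, 6215 and 6895, and its DIO-VSG values were 5539, 6803, 6249.5 and 5783. Cd9 thus varied within a factor of 2.26 in the group where it varied most.

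Itgad showed the largest difference between groups of the 10 genes. It encodes CD11d, an integrin alpha chain that pairs with the beta chain encoded by Itgb2. Itgad was at 13.2, 6.36, 90.4 and 79.4 normalized counts in the CON-LFD libraries, against 153, 685, 3424 and 117 in DIO-HFD. The DIO-LFD values were 96.1, 10.9, 20 and 33.7, and the DIO-VSG values were 76.8, 126, 35.9 and 30.5. All 4 DIO-HFD libraries were above all libraries of CON-LFD and DIO-LFD, and 1 DIO-VSG library, replicate 2, reached into their range. Within DIO-HFD the highest library was 29.2 times the lowest.

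Itgax, which encodes the related chain CD11c, followed another order. It was at 792, 615, 1141 and 791 normalized counts in the CON-LFD libraries, against 2024, 757, 1112 and 1170.1 in DIO-HFD. In DIO-LFD it was at 471, 687, 907 and 952, and in DIO-VSG at 935, 1527, 1004 and 882. Its highest library was DIO-HFD replicate 1, where Itgad was at 153, and in DIO-HFD replicate 3, the library with the highest Itgad, Itgax was within the range of the CON-LFD group. The groups overlapped throughout. DIO-HFD replicate 1 and DIO-VSG replicate 2, the 2 highest libraries for Itgax, also had the highest mean log2 deviations of 9 dendritic cell markers, 1.24 and 0.81. DIO-HFD replicate 3, with Itgax at 1112, was at −1.52. The part of dendritic cells in the values of Itgax was not tested.

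Of the secreted proteins, Mmp12 had the clearest order. It encodes macrophage elastase, a protease that cuts elastin. Mmp12 was at 113, 242, 135 and 607 normalized counts in the CON-LFD libraries, against 403, 951, 1795 and 355 in DIO-HFD. It was at 224, 166, 154 and 406 in DIO-LFD and at 112, 201, 98.5 and 253 in DIO-VSG. The lowest DIO-HFD library was above all 4 DIO-VSG libraries, above 3 of 4 DIO-LFD libraries and above 3 of 4 CON-LFD libraries.

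Spp1, which encodes osteopontin, a secreted ligand of CD44 and of integrins, was at 53, 111, 142 and 198 normalized counts in CON-LFD. The DIO-HFD values of Spp1 were 95.3, 504, 1487 and 104, and those of DIO-LFD were 1213, 639.8, 222 and 111. In DIO-VSG it was at 120.3, 533, 71.8 and 80.1. Spp1 thus varied 15.6 times within DIO-HFD and 10.9 times within DIO-LFD, and 2 DIO-HFD libraries lay inside the CON-LFD range. Lgals3, which encodes galectin-3, a sugar-binding protein made by macrophages and other cells, was at 2514, 2739, 3151 and 5153 in CON-LFD and at 3367, 5829.8, 10235 and 3486 in DIO-HFD. It was at 7817, 6079, 3619 and 5467 in DIO-LFD and at 3151, 6139.5, 3166 and 5095 in DIO-VSG. Both Spp1 and Lgals3 were about as high in DIO-LFD as in DIO-HFD, with group means of 547 and 547 for Spp1 and of 5746 and 5729.7 for Lgals3. The Spp1 mean of DIO-HFD includes replicate 3 at 1487, and the median of Spp1 was 304 there, against 431 in DIO-LFD.

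Dcstamp and Atp6v0d2 stand for cell fusion and for the lysosome. Dcstamp encodes a membrane protein needed for the fusion of osteoclasts and of macrophage giant cells, and it was the least abundant of the 10 genes. It was at 12.1, 11.7, 8.3 and 39.2 normalized counts in the CON-LFD libraries, against 18.5, 60.9, 62.2 and 27.9 in DIO-HFD. In DIO-LFD it was at 1.09, 4.96, 12.4 and 17.4, and in DIO-VSG at 8.3, 5.4, 3.08 and 9.53. The lowest DIO-HFD library was above all 8 libraries of both weight loss groups. These are small counts. DIO-LFD replicate 1 held 1 read and DIO-VSG replicate 3 held 3 reads of Dcstamp, at or under the floor, and the DIO-HFD libraries held 20 to 57 reads.

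Atp6v0d2, the form of the d subunit of the proton pump of acidic compartments that macrophages and osteoclasts use, was at 46.4, 37.1, 88.6 and 194 normalized counts in CON-LFD. It was at 171, 196, 779 and 111 in DIO-HFD, at 159, 36.7, 72.4 and 131 in DIO-LFD and at 73.6, 173, 56.4 and 101 in DIO-VSG. The 4 DIO-HFD libraries were above 3 of the 4 CON-LFD libraries, and DIO-HFD replicate 3 stood above all the others.

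**Figure D3:**
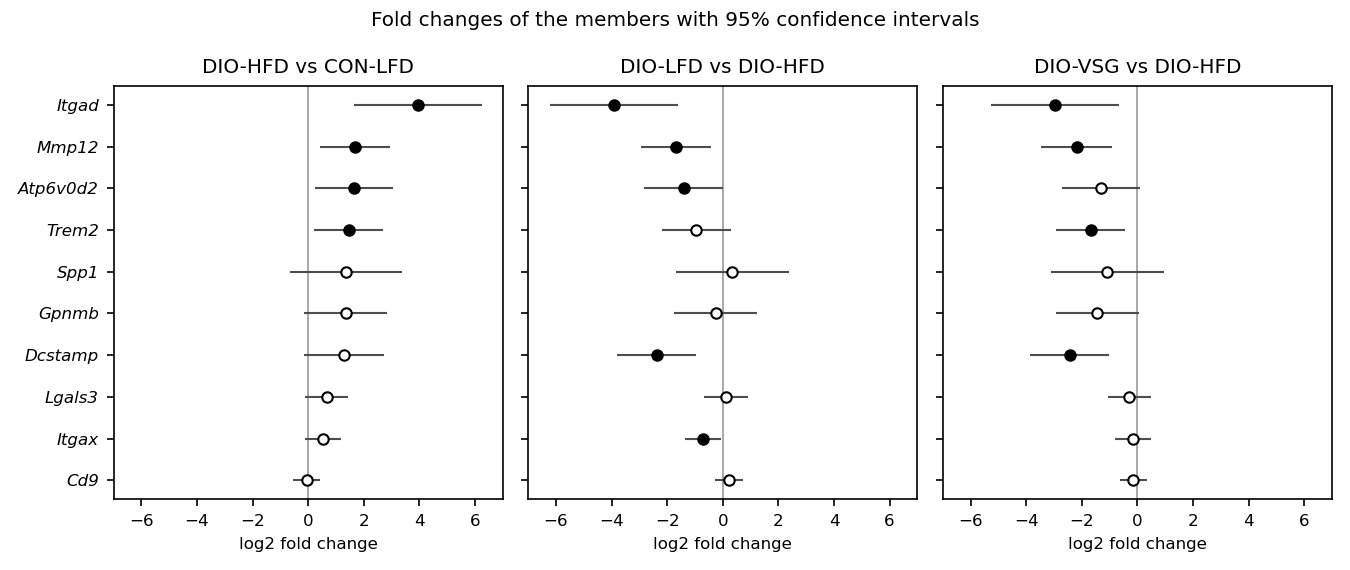
Log2 fold changes (x axis, on the log2(normalized count + 1) scale) of the 10 genes in the 3 comparisons with DIO-HFD, with limma's 95% confidence intervals as lines (n = 4 libraries per group). Filled points have an unadjusted P value below 0.05. Itgad, at 3.94 in DIO-HFD relative to CON-LFD, had the largest value and the widest interval.

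DIO-HFD against CON-LFD compares obese mice on the high-fat diet with lean mice on the low-fat diet, so obesity and the diet eaten at sampling cannot be told apart. Relative to CON-LFD, 9 of the 10 genes were higher in DIO-HFD and Cd9 was at −0.06 on the log2 scale. The median log2 fold change of the 10 was 1.36, beside 0.02 over all genes tested. Itgad was 15.3-fold higher (log2 fold change 3.94 ± 1.08 SE, 95% interval 1.63 to 6.25, unadjusted P = 0.00255, adjusted P = 0.215). Its log2 fold change ran from 2.52 to 4.59 over the alternatives. Mmp12, Atp6v0d2 and Trem2 were 3.22-fold, 3.11-fold and 2.73-fold higher, with unadjusted P values of 0.0123, 0.0253 and 0.025. Spp1, Gpnmb and Dcstamp had log2 fold changes of 1.36, 1.35 and 1.29, with intervals that included 0 (unadjusted P = 0.171, 0.0726 and 0.0734). Spp1 was at 0.59 without DIO-HFD replicate 3, and Dcstamp ran from 0.48 to 1.74 over the alternatives. Lgals3 was at 0.66 and Itgax at 0.54 (each unadjusted P = 0.0909), with Lgals3 at 0.33 without DIO-HFD replicate 3 and Itgax at 0.29 without DIO-HFD replicate 1.

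None of the 10 passed limma's adjusted P value of 0.05 in this comparison, which 0.0377% of all genes tested passed. At an unadjusted P value below 0.05, 4 of the 10 were higher, where 5.23% of all genes tested were, and 0 were lower, where 7.66% were. Itgad was the only one whose groups did not overlap, which held in this direction, with DIO-HFD higher, for 1.76% of all genes tested. Without DIO-HFD replicate 3 the count of 4 came down to 2, Itgad at 2.97 (unadjusted P = 0.00955) and Mmp12 at 1.24 (unadjusted P = 0.0498), and the median of the 10 was 0.97. In that fit 4.19% of all genes were higher at that P. Without CON-LFD replicate 2 the same 2 genes were left, where 3.79% of all genes were higher. Without CON-LFD replicate 4, the highest of its group in most members, 7 of the 10 were higher, where 5.4% of all genes were.

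Switching the diet was addressed by DIO-LFD against DIO-HFD, where 7 of the 10 genes had log2 fold changes below 0. Itgad was 15-fold lower in DIO-LFD (log2 fold change −3.91 ± 1.08 SE, 95% interval −6.22 to −1.6, unadjusted P = 0.00271, adjusted P = 0.399). Its log2 fold change ran from −4.55 to −2.42 over the alternatives. Dcstamp was 5.18-fold lower (−2.37 ± 0.67 SE, unadjusted P = 0.00305, adjusted P = 0.414). Dcstamp had few reads, and this value ran from −2.81 to −0.75 over the alternatives, with −0.75 on the deposited variance-stabilized scale. Mmp12 was 3.19-fold lower and Atp6v0d2 2.67-fold lower (unadjusted P = 0.013 and 0.0484), and Itgax was 1.63-fold lower (unadjusted P = 0.0332). Over the alternatives Mmp12 ran from −2 to −0.8 and Atp6v0d2 from −1.77 to −0.54. Atp6v0d2 was below an unadjusted P of 0.05 in 6 of the 16 fits that left out 1 library. Trem2 was at −0.95, with an interval from −2.19 to 0.28, and at −0.56 without DIO-HFD replicate 3. Spp1, Cd9 and Lgals3 had values of 0.34, 0.21 and 0.11 and Gpnmb of −0.26, all with intervals that included 0, and the intervals of Spp1, from −1.69 to 2.37, and Gpnmb, from −1.75 to 1.23, also held the values of Mmp12, Atp6v0d2 and Itgax. Without DIO-HFD replicate 3, Spp1 was at 1.12 (unadjusted P = 0.234). Differences between the genes were not tested.

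No gene of the table passed the adjusted P value in this comparison (0% of all genes tested), and so none of the 10 did. At an unadjusted P value below 0.05, 5 of the 10 were lower, where 3.16% of all genes tested were, and 0 were higher, where 5.37% were. Itgad and Dcstamp did not overlap between the groups, which held in this direction for 1.5% of all genes. The median log2 fold change of the 10 was −0.83, beside 0.01 over all genes. Without DIO-HFD replicate 3, 3 of the 5 stayed below an unadjusted P of 0.05, namely Itgad at −2.94, Dcstamp at −2.13 and Itgax at −0.74, where 2.38% of all genes were lower. The values of Mmp12 and Atp6v0d2 were then −1.22 and −0.83 (unadjusted P = 0.0521 and 0.187). Without DIO-LFD replicate 2, and in a fit of only these 2 groups, the 3 were Itgad, Mmp12 and Dcstamp, where 2.54% and 2.36% of all genes were lower. Itgad and Dcstamp were below that P in each of the 16 fits that left out 1 library.

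Surgical weight loss was addressed by DIO-VSG against DIO-HFD, and all 10 genes had log2 fold changes below 0. Itgad was 7.81-fold lower (−2.97 ± 1.08 SE, 95% interval −5.27 to −0.66, unadjusted P = 0.0155, adjusted P = 0.308). Dcstamp was 5.42-fold lower (−2.44 ± 0.67 SE) and Mmp12 4.54-fold lower (−2.18 ± 0.59 SE), with unadjusted P values of 0.0025 and 0.00231 and an adjusted P value of 0.246 for each. Over the alternatives Itgad ran from −3.61 to −1.37 here and Dcstamp from −2.86 to −0.8, with Dcstamp at −0.8 on the deposited scale. Trem2 was 3.19-fold lower (−1.67 ± 0.58 SE, unadjusted P = 0.0116, adjusted P = 0.297). Gpnmb, Atp6v0d2 and Spp1 were at −1.44, −1.32 and −1.08 (unadjusted P = 0.0567, 0.0632 and 0.273), and without DIO-HFD replicate 3 they were at −0.99, −0.74 and −0.3. Lgals3, Itgax and Cd9 were at −0.29, −0.16 and −0.14.

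Again 0 of the 10 passed the adjusted P value, as did 0% of all genes tested. At an unadjusted P value below 0.05, 4 of the 10 were lower, where 8.12% of all genes tested were, and 0 were higher, where 5.05% were. Dcstamp and Mmp12 did not overlap between the groups, which held in this direction, with DIO-VSG lower, for 4.22% of all genes. The median of the 10 was −1.38, beside 0.02 over all genes. When DIO-HFD replicate 3 was left out, Mmp12 at −1.73, Dcstamp at −2.2 and Trem2 at −1.28 kept an unadjusted P below 0.05, Itgad was at −1.99 (unadjusted P = 0.0625) and the median was −0.87, where 4.78% of all genes were lower. The 3 comparisons share the same 4 DIO-HFD libraries, so a high library in that group moves all of them together. Mmp12 and Dcstamp were below an unadjusted P of 0.05 in DIO-VSG relative to DIO-HFD in each of the 16 fits without 1 library, and so was Trem2.

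In the 3 remaining comparisons no member had an unadjusted P value below 0.05. This included DIO-VSG against DIO-LFD, in which 9.71% of all genes tested passed that threshold and 0% passed the adjusted one. Its lowest unadjusted P values belonged to Itgax, at 0.54 (95% interval −0.1 to 1.19, unadjusted P = 0.0913), and Gpnmb, at −1.18 (−2.67 to 0.31, unadjusted P = 0.111). The different values of Gpnmb, Spp1 and Lgals3 after dietary and after surgical weight loss were thus not shown to differ from each other. Without DIO-VSG replicate 2, the highest of its group in 8 members, Spp1, Gpnmb and Trem2 were lower in DIO-VSG than in DIO-LFD at an unadjusted P below 0.05, as were 5.05% of all genes in that fit. In DIO-LFD relative to CON-LFD, Lgals3 was at 0.77 (−0.01 to 1.55, unadjusted P = 0.0536) and Spp1 at 1.7 (−0.32 to 3.73, unadjusted P = 0.0926). The threshold was passed by 6.26% of all genes unadjusted and by 0.00471% adjusted. Without CON-LFD replicate 4, Lgals3 and Gpnmb were higher at an unadjusted P below 0.05 there, as were 2.57% of all genes. Lgals3 was below that P in 4 of the 16 fits without 1 library, the others leaving out replicate 1 or 3 of DIO-HFD or replicate 3 of DIO-LFD, where 3.57%, 3.65% and 2.97% of all genes were higher. Without DIO-LFD replicate 4, Spp1 was higher and Dcstamp lower at that P, as were 2.97% and 2.68% of all genes. With a score of 10 B cell markers in the fit, Spp1 at 2.55, Gpnmb at 1.57 and Lgals3 at 1.11 were higher in DIO-LFD than in CON-LFD (unadjusted P = 0.0128, 0.0436 and 0.00555), where 6.81% of all genes were. In DIO-VSG relative to CON-LFD, Dcstamp was at −1.15 (−2.58 to 0.27, unadjusted P = 0.105) and Itgax at 0.38 (−0.26 to 1.02, unadjusted P = 0.225), with 17.8% of all genes past the unadjusted threshold and 0% past the adjusted one. The B cell score in the fit put Lgals3 at 0.87 there (unadjusted P = 0.0332), where 2.06% of all genes were higher.

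**Figure D4:**
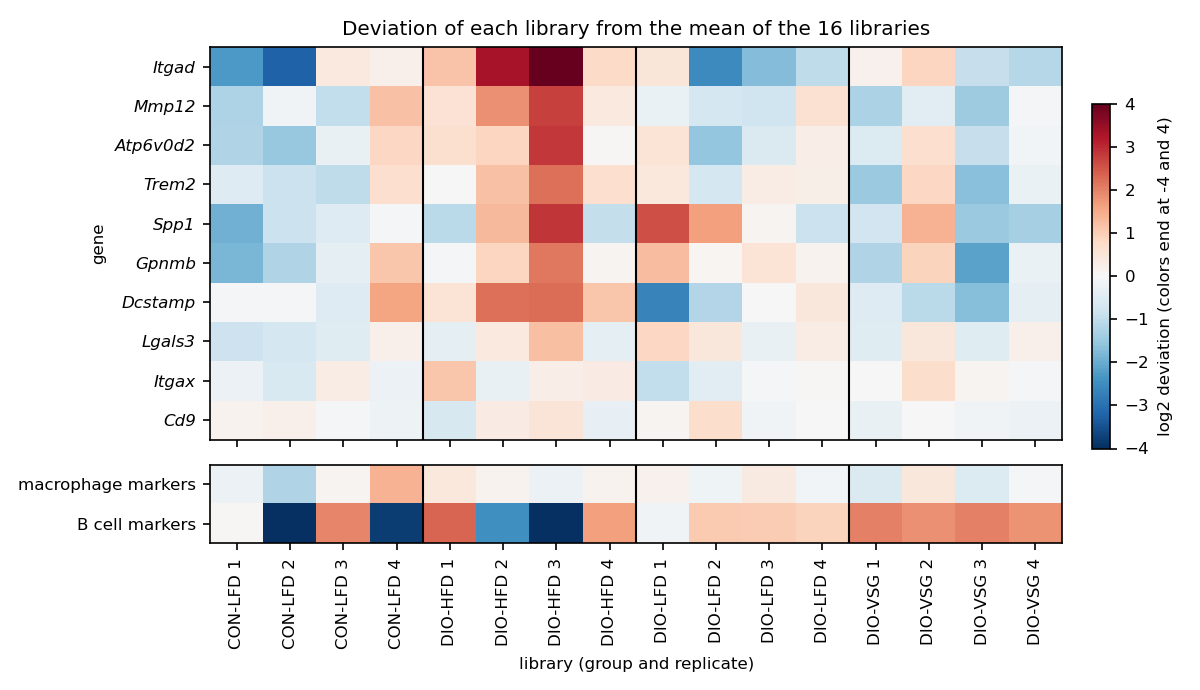
Log2 deviation (color) of each library (x axis) from the mean of the 16 libraries for the 10 genes (upper rows) and, as mean deviations, for 16 macrophage markers and 10 B cell markers (lower rows). Black lines divide the groups. DIO-HFD replicate 3 is the reddest column for most genes, while its macrophage marker score was −0.22.

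The genes varied together from mouse to mouse, as the color map of deviations shows. DIO-HFD replicate 3 was the highest of all 16 libraries in 8 of the 10 genes, the exceptions being Itgax and Cd9. CON-LFD replicate 4 was the highest of its group in 7, DIO-VSG replicate 2 in 8 and DIO-LFD replicate 1 in 6. After the group means were removed, the median Pearson r over all pairs of the 10 genes was 0.54 across the 16 libraries. Itgad and Atp6v0d2 had the highest value (r = 0.88, and 0.84 without DIO-HFD replicate 3), followed by Trem2 and Gpnmb (r = 0.87, and 0.84). Lgals3, Atp6v0d2 and Gpnmb had the highest median r with the other members, at 0.77, 0.76 and 0.74. Dcstamp, Cd9 and Itgax had the lowest, at 0.23, 0.25 and −0.06, and Cd9 and Itgax had opposite deviations (r = −0.47). The values of 1 library share its depth and its mix of cells, so these correlations are a description.

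**Figure D5:**
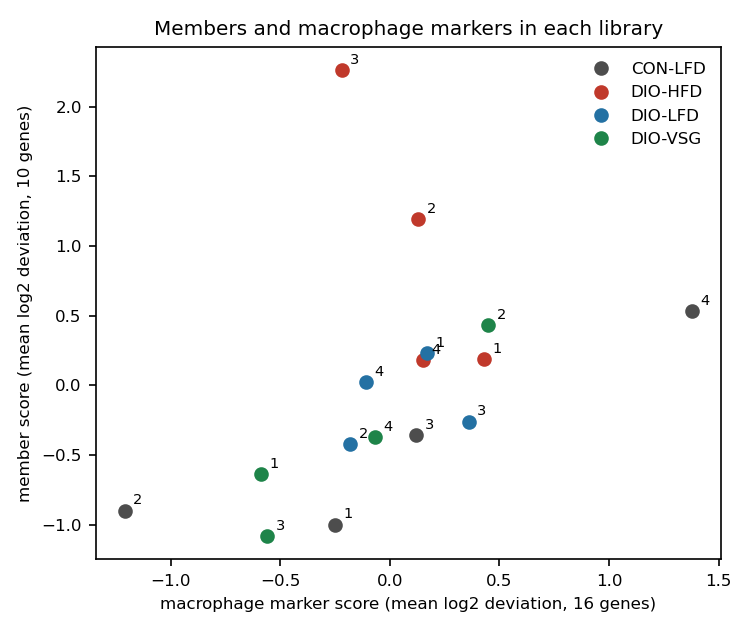
Mean log2 deviation of the 10 genes (y axis) against that of 16 macrophage markers (x axis) in each library. Colors are groups and numbers are replicates. DIO-HFD replicates 2 and 3 lie at 1.19 and 2.26 on the y axis with macrophage scores of 0.13 and −0.22, and CON-LFD replicate 4 has the highest macrophage score, 1.38.

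General macrophage markers had smaller median differences than the 10 genes. Of 16 markers, Cd68, Cd14 and Csf1r among them, 0 had an unadjusted P value below 0.05 in any of the 3 comparisons with DIO-HFD. Their median log2 fold changes were 0.12, −0.06 and −0.44 for DIO-HFD relative to CON-LFD, DIO-LFD relative to DIO-HFD and DIO-VSG relative to DIO-HFD. Their summed level was 22215 to 154508 normalized counts in CON-LFD, 48960 to 88145 in DIO-HFD, 55634 to 76121 in DIO-LFD and 42130 to 85178 in DIO-VSG, and no marker was at 0 in all libraries. With the macrophage score of each library as a covariate, Itgad was at 3.83 and Mmp12 at 1.64 in DIO-HFD relative to CON-LFD (unadjusted P = 0.00279 and 0.015). Their values were then −3.85 and −1.65 for DIO-LFD against DIO-HFD, and −2.66 and −2.06 in DIO-VSG relative to DIO-HFD. The covariate moved Gpnmb from −1.44 to −1.11, Atp6v0d2 from −1.32 to −1.06 and Trem2 from −1.67 to −1.45 in DIO-VSG relative to DIO-HFD. All 9 markers of resident macrophages had values above 0 in DIO-HFD relative to CON-LFD (median 0.46, 0 with an unadjusted P below 0.05), and their median was −0.25 in DIO-LFD relative to DIO-HFD. Of the 9, 1 had an unadjusted P below 0.05 in DIO-VSG relative to DIO-HFD, Pf4 at −1.47 (unadjusted P = 0.0168), where 8.12% of all genes tested were lower. The median of the 9 was −1.06.

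Within groups, Gpnmb, Atp6v0d2 and Trem2 had the highest positive correlations with the macrophage score, with Pearson r of 0.61, 0.51 and 0.5 and Spearman rho of 0.53, 0.45 and 0.47 over 16 libraries. Their permutation P values were 0.0552, 0.0653 and 0.0705 for r. Cd9 ran the other way, with r = −0.4 and rho = −0.5 (permutation P = 0.0185 and 0.0364, adjusted P = 0.175 and 0.146), and was the only gene with a permutation P below 0.05 for the macrophage score. None of the 20 relations computed with the macrophage and B cell scores passed adjustment (lowest adjusted P = 0.175 for r and 0.107 for rho). Without the 2 libraries farthest from the median score, CON-LFD replicates 2 and 4, r was 0.48 for Gpnmb, 0.19 for Atp6v0d2 and 0.39 for Trem2, and −0.38 for Cd9. Without DIO-HFD replicate 3 the values were 0.73, 0.7, 0.63 and −0.37. Itgad and Mmp12 had r of 0.36 and 0.28, and −0.01 each without those libraries.

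Markers of other cell types also differed between the libraries that differed in these genes. B cell scores were −4.45 to 2.34 in DIO-HFD, −5.76 to 1.94 in CON-LFD, −0.15 to 1.06 in DIO-LFD and 1.81 to 2.02 in DIO-VSG, and DIO-HFD replicates 2 and 3, the 2 highest libraries for Itgad, had the lowest B cell scores of their group. Within groups Mmp12 had r = −0.72 and rho = −0.78 with the B cell score (permutation P = 0.0316 and 0.0198, adjusted P = 0.175 and 0.107), and Itgax had r = 0.6 and rho = 0.68 (permutation P = 0.0248 and 0.00813, adjusted P = 0.175 and 0.107). Without the 2 libraries farthest from the median score, these r were −0.74 and 0.62. Lgals3, Trem2 and Spp1 also had negative rank correlations with the B cell score, at rho = −0.64, −0.52 and −0.57 (permutation P = 0.0196, 0.0214 and 0.0498, adjusted P = 0.107, 0.107 and 0.166). When the B cell score entered the fit, 7 of the 10 genes were higher in DIO-HFD than in CON-LFD at an unadjusted P below 0.05, against 4 without it, while the share of all genes went from 5.23% to 7.55%. In DIO-LFD relative to DIO-HFD, 4 were lower, where 6.43% of all genes were. In DIO-VSG relative to DIO-HFD, 2 were lower in that fit, Mmp12 at −1.47 and Dcstamp at −2.03 (unadjusted P = 0.00656 and 0.0113), against 4 without the score, and the share of all genes lower went from 8.12% to 4.19%. Itgad and Trem2 were then at −2.43 and −1.2 (unadjusted P = 0.0542 and 0.0522).

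Markers of the epithelium and of skeletal muscle had lower medians in DIO-HFD than in each of the other groups. All 10 epithelial markers had values below 0 in DIO-HFD relative to CON-LFD, with a median log2 fold change of −0.84. Of these, 5 were lower at an unadjusted P below 0.05, where 7.66% of all genes tested were. In DIO-LFD relative to DIO-HFD 7 of the 10 were higher (median 0.9), and in DIO-VSG relative to DIO-HFD 3 were (median 0.36). At that P, 5.37% and 5.05% of all genes tested were higher in these 2 comparisons. Adipocyte markers were below 0 in DIO-HFD relative to CON-LFD for 9 of 10 genes (median −0.56), with 1 lower at that P, and had medians of 0.56 and 0.02 in the other two comparisons, with 3 higher and 1 lower. All 9 muscle markers were below 0 in DIO-HFD relative to CON-LFD (median −2.34), with 1 lower at that P, and the medians were 2.07 and 1.72 in the other two, with 1 higher in each. The summed level of the epithelial markers was 31732 to 62440.2 normalized counts in DIO-HFD and 50436 to 102819 in CON-LFD. All 9 dendritic cell markers and all 10 T cell markers were above 0 in DIO-HFD relative to CON-LFD (medians 0.32 and 0.69). Their medians were −0.08 and 0.83 for DIO-LFD against DIO-HFD, and 0.32 and 2.2 for DIO-VSG against DIO-HFD. In these comparisons 0 of them had an unadjusted P below 0.05. The part of all these cell types in the values of the 10 genes was not tested.

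The 15 direct partners of these proteins had a median log2 fold change of 0.28 in DIO-HFD relative to CON-LFD. Tyrobp, the signaling adaptor of Trem2, had means of 1958 ± 1631 normalized counts in CON-LFD against 1786 ± 503 in DIO-HFD. The CON-LFD mean holds 1 library at 4304, and the medians were 1464 and 1700.5. It had log2 fold changes of 0.19, −0.14 and −0.15 in the 3 comparisons with DIO-HFD (unadjusted P = 0.677, 0.75 and 0.734). Itgb2, the beta chain for Itgad and Itgax, was at 0.64, −0.27 and 0.17 (unadjusted P = 0.256, 0.626 and 0.753). Atp6v0d1, the widely expressed form of the d subunit, was at 4212 ± 605 in CON-LFD and 4229 ± 783 in DIO-HFD. Of the 15 partners, 3 were higher and 1 lower in DIO-HFD than in CON-LFD at an unadjusted P below 0.05. Over all genes tested, 5.23% were higher and 7.66% lower at that P. None of the partners, 0 of 15, passed the adjusted P value.

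Those 3 were receptors of osteopontin and the substrate of Mmp12. Cd44, an osteopontin and hyaluronan receptor, was at 3622 ± 1529 in CON-LFD against 6309 ± 2065 in DIO-HFD (a log2 difference of 0.89, unadjusted P = 0.0327). Itgb3, an integrin beta chain for osteopontin, was at 1046 ± 368 and 1625 ± 338 (0.69, unadjusted P = 0.00845), while its alpha chain Itgav was at −0.33 (unadjusted P = 0.0457). An unadjusted P below 0.05 held under all 28 alternatives for Itgb3, under 22 for Cd44 and under 13 for Itgav. Eln, which encodes elastin, was at 4533 ± 766 in CON-LFD, 6883 ± 1776 in DIO-HFD, 6601 ± 1849.6 in DIO-LFD and 2969 ± 617 in DIO-VSG. Its DIO-VSG libraries, at 2301 to 3519, lay below all DIO-HFD libraries, at 4822 to 9028 (log2 fold change −1.2, unadjusted P = 0.000179, adjusted P = 0.243). Timp1, an inhibitor of matrix proteases, was at 0.28, −0.51 and −0.72 in the 3 comparisons (unadjusted P = 0.634, 0.389 and 0.232).

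The wider lists of related genes had medians of −0.04 to 0.31 in DIO-HFD relative to CON-LFD, beside 0.02 over all genes tested. Of 18 other lipid handling genes known from these macrophages, 0 differed between DIO-HFD and CON-LFD at an unadjusted P below 0.05, and their median log2 fold change was 0. Summed, these 18 were at 805268 to 1454705 normalized counts in the CON-LFD libraries, beside 22215 to 154508 for the 16 macrophage markers. These are values of the whole fat pad, and their levels in macrophages alone were not measured. The 15 vacuolar ATPase subunits had a median of −0.04, with 2 lower, Atp6v1d at −0.3 and Atp6v1g1 at −0.24 (unadjusted P = 0.00307 and 0.0135). These values were opposite in sign to that of Atp6v0d2. At an unadjusted P below 0.05, 7.66% of all genes tested were lower. The 4 MiT/TFE transcription factors, known regulators of lysosomal genes and of Gpnmb, had a median of 0.12 and 0 below that P, with Tfec at 0.69 (unadjusted P = 0.118) and Mitf at 0.17 (unadjusted P = 0.578). The 10 osteoclast genes tested had a median of 0.31, with 8 above 0. Of them 1 was higher at that P, Itgb3, where 5.23% of all genes tested were. Acp5, a classic osteoclast enzyme, was at −0.39 (unadjusted P = 0.107).

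The 8 genes whose pattern over the 16 libraries was most like the score of the 10 members, among 13186 genes compared, were Rab31, Kctd9, Srgap2, Ppp4r1, Ddah1, Vim, Lars and Plxnd1. Their Pearson r ranged from 0.91 to 0.96, and from 0.81 to 0.93 without DIO-HFD replicate 3. Rab31, a small GTPase of endosomes, led with r = 0.96 and Spearman rho = 0.93. Its mean was 2123 normalized counts in CON-LFD, 3988 in DIO-HFD, 2274 in DIO-LFD and 1754 in DIO-VSG. Vim, which encodes the intermediate filament vimentin, had r = 0.92 and group means of 53289, 72473, 51934 and 44382. Plxnd1, a semaphorin receptor, had r = 0.91 and group means of 5824, 8778, 6295 and 4745. These genes were picked for their likeness, so their group differences are a description.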

How the data were processed

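Stranded total RNA libraries were sequenced, and the authors aligned the reads to the mouse genome and normalized gene counts with DESeq2. The study's methods name STAR and salmon, while the submitters' processing notes name TopHat2 2.0.7 and HTSeq 0.5.3p9, and the difference was not resolved here. The deposited values were variance-stabilized values on a log2 scale (5.36 to 21.85), although described as normalized counts. The transformation was inverted, and in each library 100.0% of values were then whole multiples of 1 read (tolerance 0.001). Size factors were 0.9036 to 1.2204. No value column was left without a sample.

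Groups came from the sample labels. Limma-trend (limma 3.58.1, R 4.3.3) was fitted to log2(normalized count + 1) in 1 fit of 16 libraries with group as the only term, on the 21218 genes that reached 10 normalized counts in 4 or more libraries. Tests were two-sided, with Benjamini-Hochberg adjustment over all genes tested within a comparison and a threshold of 0.05. Fold changes on this scale understate those of low genes. The script was tested on simulated data. A score is the mean over a list of the log2 deviations from each gene's mean. Correlations used 100000 permutations within groups. Replicates were separate mice by their numbers in the labels.

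The members and gene lists were chosen with earlier results of these data known. All 10 members and the direct partners could be named, and of each other list up to 3 genes with the lowest P in DIO-HFD relative to CON-LFD. Genes most like the members were the 8 with the highest r among tested genes with a mean of at least 100 normalized counts, predicted genes left out. The alternatives tried were the deposited scale, other pseudocounts, no filter, upper-quartile and quantile scaling, limma-voom, only the groups compared, a replicate block, array weights, B cell and macrophage covariates, and leaving out each library.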

Additional observations from a re-analysis of the deposited data

Results flagged for a closer look

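Among the 40 sets of 4 libraries examined (10 genes in 4 groups), 1 held a library far from the other 3. Trem2 in DIO-LFD replicate 2 was at 72.4 normalized counts, below 139 to 156 in the other 3 libraries, and the gap made up 0.848 of the range of the group, above Dixon's 95% critical value for 4 values. Chance alone sets apart about 1 in 20 such groups. Itgad was also lowest in that library within its group, at 10.9, as was Atp6v0d2 at 36.7, while Cd9 was highest there, at 11190.4.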

How the results depend on the processing

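The members' log2 fold changes in the comparisons with DIO-HFD and the 2 with the lowest P in each other comparison, 36 in all, were recomputed under 28 alternatives, and 986 of 1008 values kept their direction. With array weights, which give less weight to variable libraries, 1, 2 and 3 members passed the adjusted P value in the 3 comparisons of DIO-HFD with CON-LFD, DIO-LFD and DIO-VSG. In the first, Itgad was at 2.74 (adjusted P = 0.0205, range over the alternatives 0.0205 to 0.582). In the second, Itgad was at −2.42 (0.0369, range 0.0369 to 0.757) and Dcstamp at −1.53 (0.0474, range 0.0474 to 0.757). In the third, Trem2, Dcstamp and Mmp12 were at −1.5, −2.07 and −1.33 (0.0168, 0.0061 and 0.0313, each up to 0.621). Those weights let 4196, 1811 and 3739 of all genes pass, or 19.8%, 8.54% and 17.6% of the genes tested. In the first comparison, 5 members were higher and 1, Cd9, lower at an unadjusted P below 0.05 with these weights. Of all genes, 18.7% were higher and 18.8% lower. They gave DIO-HFD replicate 4 a weight of 10.9, against 0.222 to 0.484 for the other 3 DIO-HFD libraries, so the DIO-HFD values rest mostly on 1 mouse. The same weights put Gpnmb at 0.23 in DIO-LFD relative to DIO-HFD, and Cd9, Spp1 and Lgals3 at 0.11, 0.04 and 0.17 in DIO-VSG relative to DIO-HFD.

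When the B cell score entered the fit, Cd9 was at 0.03 in DIO-HFD relative to CON-LFD, Gpnmb at 0 in DIO-LFD relative to DIO-HFD, Cd9 and Lgals3 at 0.07 and 0.05 for DIO-VSG against DIO-HFD, with Itgax at −0.05 in DIO-VSG relative to CON-LFD. Leaving out 1 library turned the sign of small values. Cd9 ranged from −0.24 to 0.15 in DIO-HFD relative to CON-LFD. In DIO-LFD relative to DIO-HFD, Gpnmb ranged from −0.52 to 0.19, Spp1 from −0.23 to 1.12 and Lgals3 from −0.1 to 0.44. In DIO-VSG relative to DIO-HFD, Cd9 ranged from −0.34 to 0.05, Lgals3 from −0.5 to 0.04 and Itgax from −0.38 to 0.09. Without the 2 libraries farthest from the median macrophage score, r was −0.01 for Itgad, −0.17 for Dcstamp and −0.01 for Mmp12.

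The 20 log2 fold changes given for genes other than the members were put through the same 28 alternatives, a step added after seeing the data, and 550 of 560 values kept their direction. With 1 library left out, Tyrobp ranged from −0.26 to 0.69 in DIO-HFD relative to CON-LFD, from −0.28 to 0.02 in DIO-LFD relative to DIO-HFD and from −0.36 to 0.01 in DIO-VSG relative to DIO-HFD. In the same order Itgb2 ranged from −0.01 to 1.09, from −0.5 to 0.03 and from −0.05 to 0.47, and Timp1 from −0.07 to 0.69 in the first. Tyrobp was at 0.19 with the macrophage score and Itgb2 at −0.31 with the B cell score in DIO-VSG relative to DIO-HFD. Array weights put Timp1 at −0.69 in DIO-HFD relative to CON-LFD, and with those weights Itgb3, Itgav, Acp5, Atp6v1d, Atp6v1g1, Eln and Pf4 passed the adjusted P value, Eln and Pf4 in DIO-VSG relative to DIO-HFD.

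Libraries of different groups with the same replicate number had r of −0.609 to 0.534 (median 0.0179). Those with other numbers had r of −0.628 to 0.742 (median −0.00341), and 7 of 16 libraries were closest to their own number. The ranges overlapped, and pairing by number was not tested. With the replicate block, 0 members passed in any comparison, Itgad was at 3.94 (limma unadjusted P = 0.00533), and the lower members of DIO-LFD relative to DIO-HFD at an unadjusted P below 0.05 were 3 instead of 5, where 2.82% of all genes were lower, against 3.16%. With 4 mice per group, several intervals span more than 2 log2 units, and Dcstamp rests on 1 to 57 reads per library.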
